A study of Homo sapiens with 20 samples.

Results

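WM164 melanoma cells that had become resistant to dabrafenib were compared with parental WM164 cells by where histone H3 trimethylated at lysine 4 (H3K4me3) was called along the genome. The comparison rested on 4 deposited peak lists, 2 from resistant cells and 2 from parental cells, out of 10 H3K4me3 lists in a series of 20 samples. Peaks of the 4 lists on chromosomes 1 to 22 and X that lay within 1000 bp of each other were joined, which gave 21632 regions, against 31428 when all 10 lists of the series were joined the same way. Each region was described by the bases under called peaks in each list. The parental line is labelled BRAF-mutant melanoma, and resistant and parental cells share that background. Resistant cells had been kept in 50 nM dabrafenib, renewed every 3 days, for more than 90 days, and parental cells had received the matching volume of DMSO for 3 days before harvest. The other libraries came from colonies after 45 days in 50 nM dabrafenib and from WM164 cells labelled NRAS Q61K or GFP. Whether the resistant cells came from 1 clone, and whether the paired lists came from separate cultures, is stated nowhere in the labels, so the p-values below measure the spread between these libraries, which may be technical.

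H3K4me3 is written by the SET1 and MLL (KMT2) enzymes and removed by KDM5 demethylases, and it sits around the start sites of genes that are active or poised for transcription. Dabrafenib blocks the mutant BRAF kinase, which drives growth in many melanomas through MEK and ERK. ERK in turn switches on its own brakes, such as the DUSP phosphatases and the Sprouty proteins, and the immediate early transcription factors EGR1 and FOS. Melanocyte identity is held by MITF and SOX10, which turn on the genes of pigment synthesis.

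The resistant lists were shorter than the parental ones. They held 19401 and 19111 peaks over 35.1 and 34.1 Mb in resistant cells, against 29258 and 30065 peaks over 45.3 and 40.7 Mb in parental cells. The shortest peak was 255 and 256 bp in the resistant lists, against 202 and 180 bp in the parental lists. The shared bases of the 2 resistant lists made up 0.839 of their joint bases, and those of the 2 parental lists 0.807, against 0.673 to 0.710 for the 4 pairs of a resistant with a parental list. Of the resistant bases, 89.5% to 93.7% lay under parental peaks, and of the parental bases 70.5% to 77.4% lay under resistant peaks. Read depth is unknown because the lists hold no counts, and the part of list length and peak length in the results below was not tested beyond the alternative settings given. A weaker mark in all cells and a mark kept in fewer cells cannot be told apart.

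Most regions kept the mark. A peak was present in all 4 lists in 12772 regions, and 4518 regions had other mixtures, of which 3452 were found in 1 parental list and no other. Called gained were the 519 regions with a peak in both resistant lists and in neither parental list, which is 2.4% of the 21632 regions. Called lost were the 3823 regions with a peak in both parental lists and in neither resistant list, 17.7% of all regions. Lost regions made up 22.3% of the 17124 regions present in both parental lists, and gained regions 3.85% of the 13468 present in both resistant lists. With 2 libraries against 2, the smallest 2-sided p of an exact permutation test is 0.33, so these are counts without a test. When every list was cut to the 19111 peaks of the shortest, gained regions numbered 737 and lost regions 1349.

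Gained regions were mostly small and weak. Their median was 795 bases under peaks per resistant list and a −log10 q of 8.54, against 2435 bases and 40 in the resistant lists for regions present in all 4. In 39 of the 519 regions the resistant mean reached 2000 bases, and in 22 the −log10 q reached 30. Together they held 0.520 Mb, 1.5% of the bases under resistant peaks. The 15 gained regions with the highest −log10 q are named here, leaving out centromeric and heterochromatic bands. Of these, 11 lay within 1000 bp of a start site in a table of GRCh37 gene positions recalled without an annotation of that build and with these regions in view, 3 lay inside a gene and 1 at neither. All 15 were listed with 0 bases in both parental lists by the rule that chose them.

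The strongest was ALDH1A3, whose enzyme makes retinoic acid from retinaldehyde. Its region, chr15:101418376-101425549 (GRCh37) in band 15q26.3, held 6934 and 6014 bases in the resistant lists and 0 and 0 in the parental lists. Its top peak ranked 462 and 522 in the 2 resistant lists, so it stood among the strongest few percent of the resistant peaks, and no peak was listed there in the colony, NRAS Q61K or GFP lists either. The widest of the 15 by mean was LRFN5, a synaptic adhesion protein, at chr14:42071272-42079827, with 6575 and 6919 bases in resistant cells and 0 and 0 in parental cells. It was likewise at 0 in the other 6 lists.

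LIN7A, a scaffold of cell polarity complexes, held 4263 and 4631 bases in resistant cells (chr12:81328669-81333505). CEACAM21, of the carcinoembryonic antigen family of adhesion molecules, held 4069 and 4230 bases (chr19:42055598-42060072). LAD1, which encodes ladinin of the anchoring filaments under epithelia and whose recalled length does not match RefSeq, held 3546 and 3932 bases (chr1:201366341-201370330). Both parental lists were at 0 for each of them. LSR, a lipoprotein receptor that also sits at tricellular tight junctions, held 2895 and 3012 bases (chr19:35738338-35741349). A gained region inside ESPN, which encodes an actin-bundling protein, held 1663 and 1549 bases (chr1:6506447-6508361). The resistant replicates lay close together at each of these loci, while no base was listed in parental cells.

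LPAR1, a receptor for lysophosphatidic acid, held 1307 and 1995 bases in resistant cells (chr9:113798717-113800711). A region inside DLL3, a Notch ligand, held 1445 and 2104 bases (chr19:39997032-39999135). One inside DAGLA, which makes the endocannabinoid 2-arachidonoylglycerol, held 2939 and 2760 bases (chr11:61484882-61487929). The lower resistant library was thus the first at LPAR1 and DLL3 and the second at DAGLA. The others were PRDM8, of the PR-domain family of transcriptional regulators, LRRFIP1, SPEF2, a protein of sperm flagella, the pseudogene DPY19L2P4 and a region of 1p36.32 at no gene of the table. These ranged from 1380 to 3629 bases in a resistant list.

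The colony lists held 2 of the 15. The region of 1p36.32 (chr1:4035383-4039549) had 3629 and 3443 bases in resistant cells and 0 and 0 in parental cells, beside 1952 and 2763 in colonies. DPY19L2P4 had 1779 and 1380 bases in resistant cells and 0 and 0 in parental cells, beside 1505 and 1331 in colonies. The other 13 had no peak in either colony list, beside 86.1% of all 519 gained regions. None of the 6 other lists held a peak in 8 of the 15, beside 67.2% of all 519. Among the 22 gained regions with a −log10 q of 30 or more, these shares were 90.9% and 54.5%. Just below the 15, and named after their values were seen, were NR5A2, ADAMTS4, CACNA1C, ROR2, GDNF, SDK2 and ALCAM. ROR2, a receptor tyrosine kinase that binds WNT5A, held 2234 and 2268 bases in resistant cells and 0 and 0 in parental cells (chr9:94710345-94712626). GDNF, the glial neurotrophic factor that signals through RET, held 2895 and 2751 bases in resistant cells and 0 and 0 in parental cells (chr5:37837295-37840512).

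**Figure D1:**
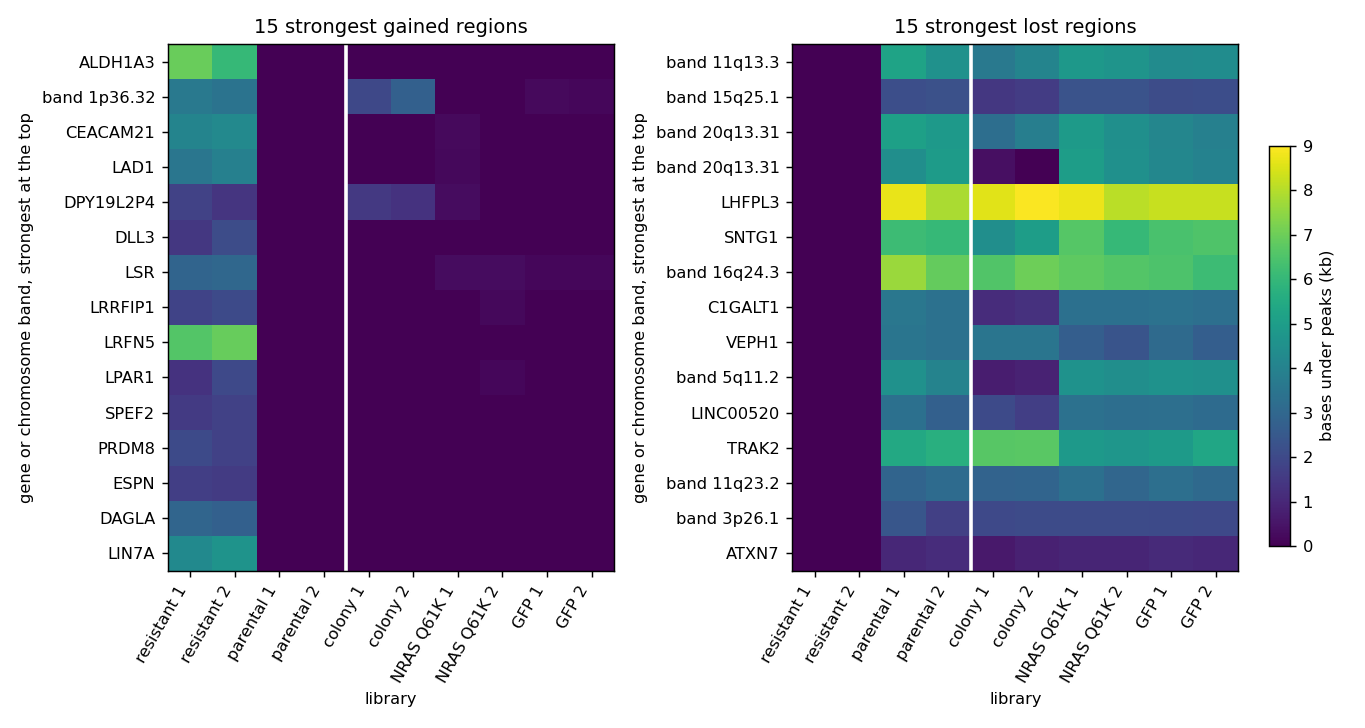
Bases under H3K4me3 peaks (colour, in kb) in each library (columns, resistant then parental, and right of the white line the other 6 lists) for the 15 strongest gained regions (left) and the 15 strongest lost regions (right). The gained rows are dark in both parental columns and in almost all of the other 6 lists, with ALDH1A3 and LRFN5 the widest. The lost rows are at 0 in both resistant columns. In colonies 1 of the 20q13.31 rows is also at or near 0, and the 5q11.2 and C1GALT1 rows are low. The ATXN7 row is dark throughout, with at most 1137 bases.

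The gained starts differ widely in base composition, which the promoter sequences show. RefSeq promoters (GRCh38.p14, 250 bases before to 50 after the start) are printed 5′ to 3′ for 4 gained genes whose start the table places under the region, for KIT, a gained gene of the melanocyte list, and for EGR1, which changed most among the ERK targets. Capitals mark CG dinucleotides, the sites of DNA methylation. The GRCh38 sequence was matched by gene, not by converting the GRCh37 region. The gained region of KIT was weak, with a −log10 q of 8.0 in resistant cells. It was placed by lying within 1000 bp of the start and was not shown to cover the printed promoter.
ALDH1A3 promoter: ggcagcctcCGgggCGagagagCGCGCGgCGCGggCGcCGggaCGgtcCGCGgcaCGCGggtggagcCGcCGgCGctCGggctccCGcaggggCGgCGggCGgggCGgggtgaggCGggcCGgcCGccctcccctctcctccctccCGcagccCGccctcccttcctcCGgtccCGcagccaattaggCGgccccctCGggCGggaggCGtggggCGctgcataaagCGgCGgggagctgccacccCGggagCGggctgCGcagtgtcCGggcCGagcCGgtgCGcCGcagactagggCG
LRFN5 promoter: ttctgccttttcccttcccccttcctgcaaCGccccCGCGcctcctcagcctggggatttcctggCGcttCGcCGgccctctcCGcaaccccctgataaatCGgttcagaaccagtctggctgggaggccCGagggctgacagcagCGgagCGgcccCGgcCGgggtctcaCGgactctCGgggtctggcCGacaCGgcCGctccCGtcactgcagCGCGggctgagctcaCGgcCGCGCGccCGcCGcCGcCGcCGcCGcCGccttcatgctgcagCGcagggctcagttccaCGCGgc
LIN7A promoter: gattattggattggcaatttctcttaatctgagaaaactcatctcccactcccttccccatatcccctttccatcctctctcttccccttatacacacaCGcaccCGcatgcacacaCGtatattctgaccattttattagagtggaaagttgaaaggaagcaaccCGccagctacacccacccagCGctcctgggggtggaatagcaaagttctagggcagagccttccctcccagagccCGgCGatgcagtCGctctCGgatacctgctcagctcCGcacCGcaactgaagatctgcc
CEACAM21 promoter: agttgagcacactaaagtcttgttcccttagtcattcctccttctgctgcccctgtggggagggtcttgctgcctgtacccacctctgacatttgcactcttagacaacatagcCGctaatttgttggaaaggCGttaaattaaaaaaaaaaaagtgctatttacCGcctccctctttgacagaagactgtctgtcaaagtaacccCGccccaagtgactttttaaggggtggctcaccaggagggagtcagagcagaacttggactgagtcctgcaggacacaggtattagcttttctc
KIT promoter: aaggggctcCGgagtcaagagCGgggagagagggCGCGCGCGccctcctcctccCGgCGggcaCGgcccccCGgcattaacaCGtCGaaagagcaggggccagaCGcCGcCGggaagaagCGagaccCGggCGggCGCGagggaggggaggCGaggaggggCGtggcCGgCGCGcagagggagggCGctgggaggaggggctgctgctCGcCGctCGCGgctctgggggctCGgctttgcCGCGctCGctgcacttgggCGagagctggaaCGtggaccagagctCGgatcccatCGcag
EGR1 promoter: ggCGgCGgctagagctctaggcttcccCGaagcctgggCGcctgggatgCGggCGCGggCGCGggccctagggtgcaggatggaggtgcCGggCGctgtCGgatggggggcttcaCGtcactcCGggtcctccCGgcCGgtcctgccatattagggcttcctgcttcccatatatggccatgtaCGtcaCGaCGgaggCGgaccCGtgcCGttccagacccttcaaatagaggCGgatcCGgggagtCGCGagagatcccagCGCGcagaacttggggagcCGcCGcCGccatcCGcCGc

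In GRCh38.p14 these windows are ALDH1A3 at chr15:100879581-100879880, plus strand, LRFN5 at chr14:41606626-41606925, plus strand, LIN7A at chr12:80937885-80938184, minus strand, CEACAM21 at chr19:41549268-41549567, plus strand, KIT at chr4:54657707-54658006, plus strand, and EGR1 at chr5:138465229-138465528, plus strand. ALDH1A3 has 46 CG dinucleotides in its 300 bases, LRFN5 35, LIN7A 11 and CEACAM21 4, while KIT has 38 and EGR1 33. The median over 27305 RefSeq promoters is 14, with quartiles of 3 and 28. Among the 8 gained starts whose promoter could be placed at the gene's 5′ end, the count ran from 4 to 46 with a median of 18.5. Gained starts thus included both CG-rich and CG-poor promoters. Searched on both strands, the AP-1 motif TGANTCA was in 0 of these 8 and in 7.76% of all promoters, the E-box CACGTG in 0 of 8 and in 7.43%, and TATAAA in 1 of 8 (LPAR1) and in 12%. A CArG box, the motif read by serum response factor, was in 1.29% of all promoters and in the printed EGR1 promoter, but in none of the 8.

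Loss fell mainly on weak, narrow regions. Lost regions had a median of 524 bases and a −log10 q of 7.10 in the parental lists, against 2821 bases and 54.8 there for regions present in all 4. Of the regions in both parental lists, ranked by −log10 q into 5 equal groups, 81.3% were lost in the weakest group, 28.8% in the next, 1.14% in the middle one, 0.204% in the next and 0.175% in the strongest. Split by parental bases, the share was 78.9% in the narrowest group and 0.818% in the widest. Lost regions held 2.66 Mb, 6.18% of the bases under parental peaks. Only 61 of the 3823 had a parental −log10 q of 30 or more, and 107 a parental mean of 2000 bases or more. Kept to peaks of −log10 q of 10 or more, the lists gave 1387 lost regions and 352 gained ones, and kept to peaks of at least 300 bp, 2447 lost and 537 gained.

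**Figure D2:**
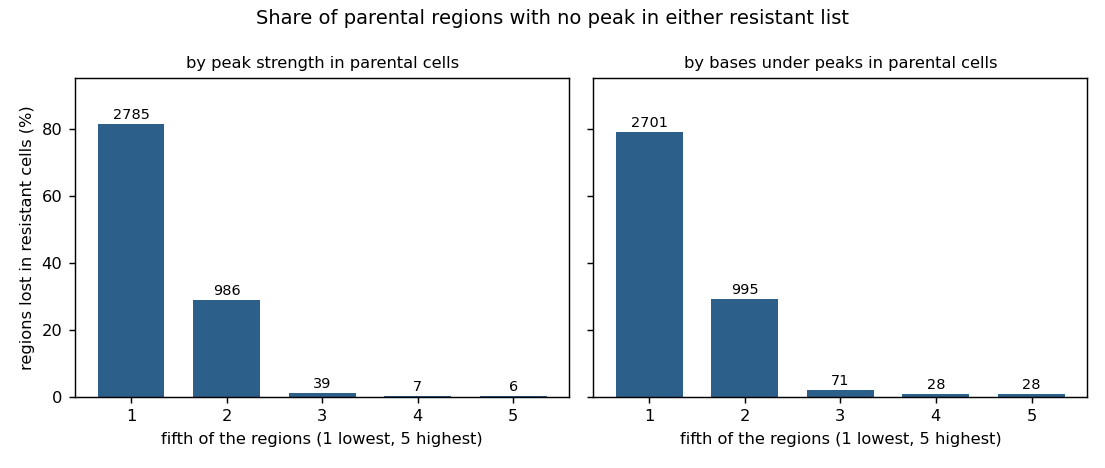
Share of regions present in both parental lists that had no peak in either resistant list (bars, in %; numbers above the bars count the lost regions), in 5 equal groups by parental −log10 q (left) and by parental bases under peaks (right). Loss was 81.3% in the weakest group and 0.175% in the strongest, where 6 regions were lost.

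Few of the strongest lost regions were placed at gene starts. Of the 15 named, 2 lay within 1000 bp of a start, 5 inside a gene and 8 at no gene of the table. The gene table was written with these regions in view, so this is a description.

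The highest parental −log10 q, 121, belonged to a region of 11q13.3 between FADD, an adaptor of death receptors, and PPFIA1 (chr11:70086060-70091346). It was listed with 0 and 0 bases in resistant cells, against 5212 and 4559 in parental cells, and its top peak ranked 123 and 64 in the 2 parental lists. Colonies still held 3643 and 4071 bases there. The widest of the 15 lay inside LHFPL3 (chr7:104436304-104445866), with 0 and 0 bases in resistant cells, against 8702 and 7873 in parental cells. A region of 16q24.3 (chr16:90152094-90160007) had 0 and 0 bases in resistant cells, against 7644 and 6862 in parental cells.

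Band 20q13.31 lost 2 of the 15. One lay between PCK1, which controls gluconeogenesis, and ZBP1, a sensor of nucleic acids (chr20:56172489-56177828), with 0 and 0 bases in resistant cells, against 5128 and 4840 in parental cells. The other lay between TFAP2C, a transcription factor, and BMP7, a bone morphogenetic protein (chr20:55353902-55359343), with 0 and 0 bases in resistant cells, against 4457 and 4923 in parental cells. In colonies the first still held 3261 and 3860 bases, while the second held 376 and 0.

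At recalled starts, C1GALT1, which builds the core 1 O-glycan, had 0 and 0 bases in resistant cells, against 3576 and 3368 in parental cells (chr7:7196189-7199802). The long noncoding RNA gene LINC00520 had 0 and 0, against 3311 and 2775 (chr14:56260355-56263728). The RefSeq promoter of C1GALT1 is not at that gene's 5′ end, and whether the lost region covers it was not checked. Loss of the mark at that promoter is therefore not shown. Neither gene's resistant lists held any peak in these regions, and colonies kept 1142 to 2024 bases at the 2 starts. Inside genes, the region of SNTG1 lost 6178 and 6038 parental bases, that of TRAK2, an adaptor for mitochondrial transport, 5425 and 5663, that of VEPH1 3496 and 3349, and that of ATXN7, a subunit of the SAGA complex, 986 and 1137. The remaining 4 lay at no gene of the table on 15q25.1, 5q11.2, 11q23.2 and 3p26.1, the third of them between PLET1 and NCAM1, a neural adhesion molecule, with 1708 to 4543 parental bases in a list. All 15 were present in both GFP lists, beside 80.2% of all 3823 lost regions. In all 6 other lists 14 of the 15 were present, beside 21.0% of the 3823. Among the 61 lost regions with a parental −log10 q of 30 or more, these shares were 100% and 82.0%.

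Ranked 20 among the lost regions, and named after its value was seen, was a region inside MITF (chr3:69887532-69889976). It had 0 and 0 bases in resistant cells, against 2280 and 2032 in parental cells, while colonies held 1979 and 2303. The region was placed inside the gene, not at a start of the table. MITF has several starts, and those looked up kept their peaks, as given with the melanocyte genes below.

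Gained and lost regions were present to different extents in the other lists of the series. Lost regions had to be in both parental lists and gained ones in neither, and all lists come from WM164 cells. How much of the difference follows from that rule was not tested. Of the 12772 regions with a peak in every resistant and parental list, 96.2% were present in both colony lists. For both NRAS Q61K lists the share was 99.8%, and for both GFP lists 99.2%. Of the 519 gained regions, 45 (8.67%) were present in both colony lists, 80 (15.4%) in both NRAS Q61K lists and 30 (5.78%) in both GFP lists, while 349 (67.2%) were in none of the 6. Of the 3823 lost regions, 897 (23.5%) were present in both colony lists, 3157 (82.6%) in both NRAS Q61K lists and 3066 (80.2%) in both GFP lists, and 84 (2.20%) in none of the 6. Of the 61 strongest lost regions, those with a parental −log10 q of 30 or more, 50 were in both colony lists and all 61 in both NRAS Q61K and both GFP lists. The GFP and NRAS Q61K lists are the longest of the series, with 37649 to 45376 peaks, and the colony lists hold 21408 and 21573.

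Widths were tested in the 17904 regions with a peak in at least 2 of the 4 lists. The test was limma on log2(bases under peaks + 200), with libraries centred on the median of regions covered in all 10 and Benjamini-Hochberg adjustment over all 17904 regions. At an adjusted p under 0.05, 2608 regions were wider in resistant cells, 14.6% of those tested, and 5957 were narrower, 33.3%. All 519 gained regions are among the wider, and 3582 of the lost ones among the narrower. These were chosen on the same bases, so their calls here are no separate support for gain or loss. The split depends on the centring, since wider regions made up 30.4% of the calls with it and 10.4% without it, when 1065 were wider and 9183 narrower. It also depends on which regions are tested. When 1 parental list is left out, a lost region has a peak in only 1 list and is no longer tested. Gained regions stay in the test. The 3582 lost regions among the narrower calls thus drop out by the filter. Those fits therefore cannot tell this filter apart from the parental libraries, and the part of each in the split was not tested.

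Among the 12772 regions present in all 4 lists, the calls were nearly even, with 1965 wider (15.4%) and 2106 narrower (16.5%) in resistant cells. Their median was 2435 bases in resistant cells and 2821 in parental cells, a log2 ratio of −0.21 before centring. In 7536 of them both resistant lists held fewer bases than either parental list, and in 1148 both held more. Centring removes this shift, so wider means wider relative to a typical shared region. The shift was of like size in each of 5 equal groups by parental width, from −0.20 to −0.22. Large changes were rare, with 147 wider and 239 narrower called regions past 1 on the log2 scale.

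**Figure D3:**
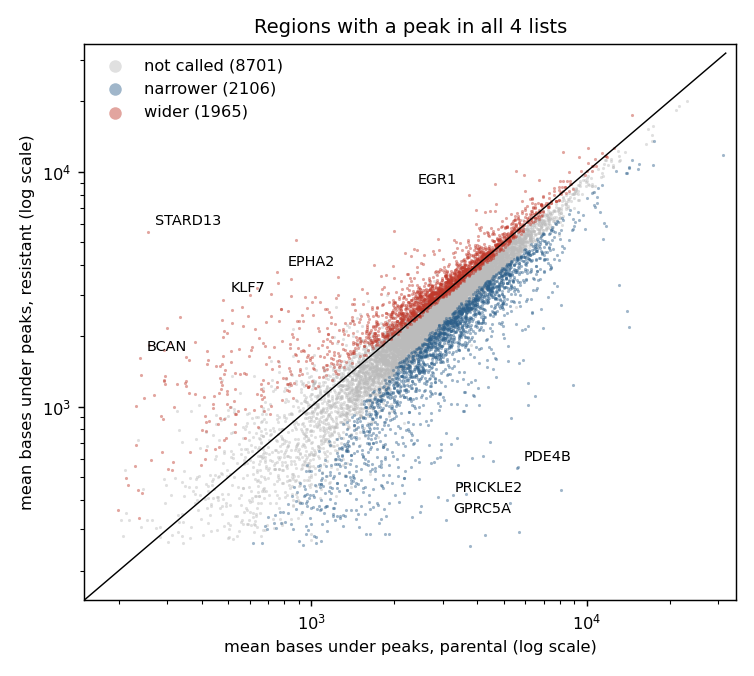
Mean bases under peaks in resistant cells (vertical, log scale) against parental cells (horizontal, log scale) for the 12772 regions with a peak in all 4 lists, coloured by the limma call, with the line of equality in black. The cloud lies mostly below the line, called regions flank it on both sides, and STARD13, KLF7 and BCAN stand far above it and PDE4B, PRICKLE2 and GPRC5A far below.

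The largest rise among shared regions was at a recalled start of STARD13, a GTPase-activating protein. The recalled gene length does not match RefSeq, and the start is not the gene's 5′ end there. Its region (chr13:33755377-33761081) held 5535 and 5523 bases in resistant cells, against 252 and 258 in parental cells, a log2 difference of 3.85 ± 0.16 (SE; limma adjusted p = 1.57e-06). It was at 0 in both colony and both GFP lists and held 3132 and 2456 bases in the NRAS Q61K lists. KLF7, a Krüppel-like transcription factor, had 3077 and 2638 bases in resistant cells, against 772 and 189 in parental cells (chr2:208028247-208032337; log2 difference 2.51 ± 0.39, limma adjusted p = 0.00126). Both resistant values lay above both parental ones at each locus, although the parental replicates of KLF7 were far apart.

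BCAN, which encodes the brain proteoglycan brevican, had 1653 and 1555 bases in resistant cells, against 279 and 198 in parental cells (chr1:156610870-156612940; log2 difference 2.24). ADGRB3, an adhesion G protein-coupled receptor of brain, had 3226 and 2807, against 1218 and 210 (chr6:69343922-69347147; 2.27). The limma adjusted p was 4.66e-05 for BCAN and 0.0034 for ADGRB3, and every named rise had to pass 0.05 to be named. The parental replicates of ADGRB3 were far apart. Colonies held 1752 and 1246 bases at BCAN and 2346 and 2251 at ADGRB3. Among the rest were PNMA2 (2.28), the potassium channel KCNK15 (2.49), a region inside the noncoding RNA gene CASC15 (2.44) and regions of 7p11.2 (2.69) and 9q34.3 (2.53), the last between COL5A1, a fibrillar collagen, and FCN2. KCNK15 had 2675 and 2119 bases in resistant cells, against 430 and 238 in parental cells (limma adjusted p = 0.0128), but the adjusted p passed 0.05 without resistant replicate 1, at 0.0552, without parental replicate 1, at 0.0536, without parental replicate 2, at 0.0829, and with 50 bases added before the log, at 0.0669.

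The largest falls left short peaks in place of broad ones. In PDE4B, a phosphodiesterase that breaks down cyclic AMP, a region inside the gene (chr1:66796703-66802366) had 583 and 513 bases in resistant cells, against 5601 and 5560 in parental cells, a log2 difference of −2.76 ± 0.09 (limma adjusted p = 5.1e-07). GPRC5A, a G protein-coupled receptor induced by retinoic acid, had 333 and 324 bases at its start, against 3143 and 3024 in parental cells (chr12:13043881-13047172; −2.44 ± 0.10, limma adjusted p = 1.44e-06). Resistant and parental values were far apart at both, and the replicates of each group close together. PRICKLE2, of planar cell polarity, had a region inside the gene with 539 and 265 bases, against 3180 and 3059 (chr3:64199481-64202834; −2.31), and FKBP9, a peptidyl-prolyl isomerase, one with 587 and 256, against 3388 and 3167 (chr7:33037583-33041606; −2.34). The other 6 were at no gene start of the table and fell by 2.30 to 3.37 on the log2 scale. Among them was one between MYL12B and TGIF1, a repressor of TGF-β signalling (chr18:3281833-3286088). It had 255 and 256 bases in resistant cells, against 3813 and 3757 in parental cells. These resistant values equal the length of the shortest peak in each resistant list.

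Calls among shared regions were unevenly spread over the chromosome arms. On 19p, 8 of 373 shared regions were wider and 158 narrower in resistant cells, on 18p 1 and 22 of 52, and on 12q 29 and 156 of 493. The reverse held on 21q, with 45 wider and 6 narrower of 122, on 13q with 88 and 15 of 236, on 10q with 125 and 13 of 382, and on 11q with 142 and 31 of 442. The median log2 difference ran from −0.23 on 19p to 0.22 on 21q. DNA copy number was not measured in these lists, and its part in this pattern was not tested. Centred on each arm's own median, a setting chosen after seeing the data, the fit called 2390 regions wider and 5764 narrower.

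**Figure D4:**
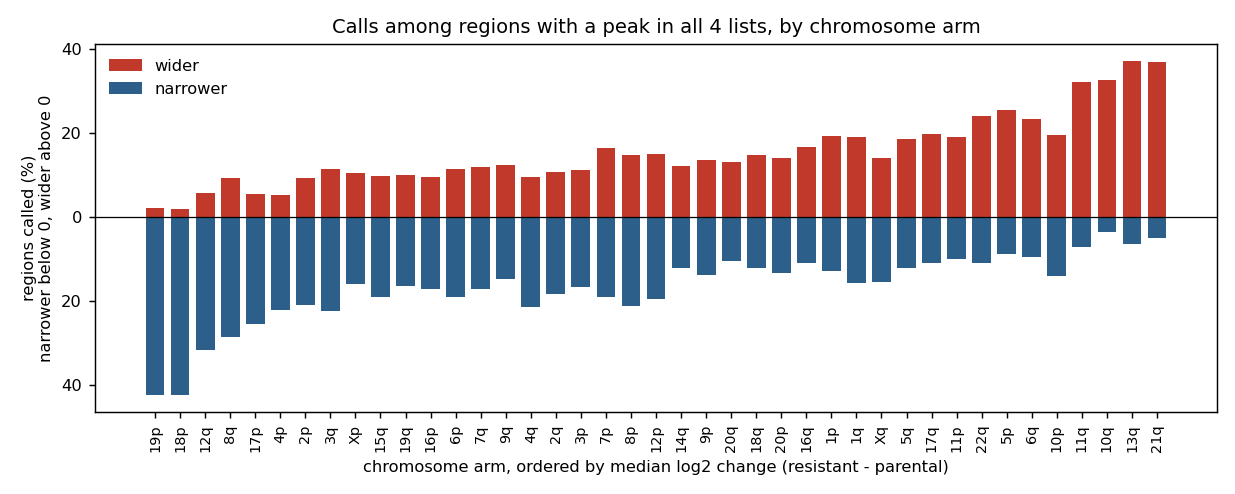
Share of regions present in all 4 lists that were called wider (above 0) or narrower (below 0) in resistant cells, in % of each arm's shared regions, for the arms with at least 50 regions, ordered by median log2 difference. Narrower calls dominate at the left end (19p, 18p, 12q) and wider calls at the right end (21q, 13q, 10q, 11q).

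Gene lists were read at the 5′ end of each gene. Of 125 genes placed, 102 had a region within 1000 bp and 101 were tested, of which 30 were wider and 20 narrower in resistant cells, beside 14.6% and 33.3% of all regions tested. Since 98 of the 102 had a peak in all 4 lists, the closer background is that of such regions, of which 15.4% were wider and 16.5% narrower. Gained or lost calls were few, with 2 gained (KIT and ALDH1A3) and 1 lost (OCA2) of the 102, beside 2.4% and 17.7% of all regions. Most changes at these genes were small, and 9 of the 30 wider and 6 of the 20 narrower calls held under every alternative that tested them. The markers of other cell types, among them CD3E and PTPRC of blood, KRT5 and EPCAM of epithelia and ALB of liver, had no region at any of the 11 starts placed.

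The melanocyte genes split. Of 17 tested, 4 were wider, 6 narrower and 7 not called, with a median log2 difference of −0.03 beside −0.08 for all regions tested and 0.0062 for regions present in all 4 lists, as 15 of the 17 are. Without centring the same genes gave 1 wider and 10 narrower, beside a median of −0.28 for all regions, and centring by arm gave 4 and 7. The narrower genes were TYR, PMEL, SLC45A2, OCA2, RAB27A and MITF. PMEL, the fibril protein of melanosomes, had 11006 and 10637 bases in resistant cells, against 15633 and 15233 in parental cells (chr12:56354429-56370782), a log2 difference of −0.31 ± 0.05 (limma adjusted p = 0.00116). It lies on 12q, the arm with 156 narrower regions of 493, and it stayed narrower, with an adjusted p of at most 0.0197, under all 19 alternatives. SLC45A2, a melanosomal transporter, had 2913 and 2558 bases, against 5272 and 4184 (chr5:33980590-33986108; −0.55 ± 0.07, limma adjusted p = 0.000485).

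TYR, tyrosinase, had 10751 and 10167 bases in resistant cells, against 14141 and 14261 in parental cells (−0.24 ± 0.06), and RAB27A, which moves melanosomes, 3936 and 4116, against 6102 and 5287 (−0.28 ± 0.05). Both were called by limma, with adjusted p of 0.00868 and 0.0015. OCA2, a melanosomal transporter, was lost, with 0 and 0 bases in resistant cells, against 1025 and 515 in parental cells. At MITF, the most upstream start had 3461 and 3205 bases, against 4602 and 4416 (chr3:69787185-69791841; −0.22 ± 0.04, limma adjusted p = 0.00454), while the start of the melanocyte isoform had 4905 and 3725, against 5531 and 5674 (chr3:69984282-69990391; −0.18 ± 0.11, limma adjusted p = 0.234).

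On the other side, SOX10, the neural crest factor upstream of MITF, had 11477 and 11105 bases in resistant cells, against 10664 and 10786 in parental cells (chr22:38373697-38386298; 0.27 ± 0.05, limma adjusted p = 0.00299). GPR143, a receptor of melanosomes, had 2696 and 2550, against 1848 and 1610 (0.75 ± 0.23, a call lost in 6 of 19 alternatives), and BIRC7, an inhibitor of apoptosis, 3586 and 3581, against 3352 and 3308 (0.30 ± 0.07). KIT, the receptor for stem cell factor, was gained, with 374 and 660 bases in resistant cells and 0 and 0 in parental cells (chr4:55524755-55525414), a small region next to the named gains above. It was at 0 in the other 6 lists too. TYRP1 and TRPM1 had no region at their 5′ ends in any of the 4 lists. PAX3, TFAP2A, DCT, MLANA, MC1R, GPNMB and EDNRB were not called.

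ERK targets and feedback genes leaned to the wider side relative to typical regions. All 19 had a peak in all 4 lists, and 10 were wider, 2 narrower and 7 not called, with a median log2 difference of 0.12 beside 0.0062 for regions present in all 4 lists and −0.08 for all regions tested. This lean depends on the centring, since 5 were wider and 5 narrower without it, with a median of −0.08 beside −0.28, while centring by arm again gave 10 and 2. EGR1 changed most, with 7881 and 8116 bases in resistant cells, against 4046 and 3409 in parental cells (chr5:137798805-137806966; 1.26 ± 0.05, limma adjusted p = 1.67e-06). Colonies held 3032 and 3275 bases at EGR1. SPRY4, which dampens receptor signalling to RAS, had 18065 and 16985 bases, against 14700 and 14457 (chr5:141689561-141707925; 0.46 ± 0.05, limma adjusted p = 0.000114), and colonies 8824 and 8982. Resistant values exceeded parental ones in both genes without overlap.

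DUSP5, a phosphatase of nuclear ERK, had 6676 and 7007 bases in resistant cells, against 6084 and 5909 in parental cells (0.38 ± 0.05), on 10q with its 125 wider regions of 382. MYC had 8310 and 8225, against 7542 and 7643 (0.32 ± 0.05), and FOS 6116 and 5824, against 5141 and 5519 (0.35 ± 0.07). These 3, with EGR1 and SPRY4, held under every alternative that tested them. SPRY2 (0.28), ETV4 (0.30), DUSP6 (0.22), CCND1 (0.12) and SPRED2 (0.11) were also wider, CCND1 and SPRED2 turning to −0.08 and −0.09 without centring and CCND1 to −0.03 with centring by arm. Of 19 alternatives, the calls of CCND1 and SPRED2 were each not kept in 14, and that of DUSP6 in 8. IER3 (−0.31) and ETV1 (−0.16) were narrower, ETV1 turning to 0.02 under the stricter peak threshold. DUSP4, SPRY1, SPRED1, ETV5, PHLDA1, FOSL1 and JUN were not called.

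**Figure D5:**
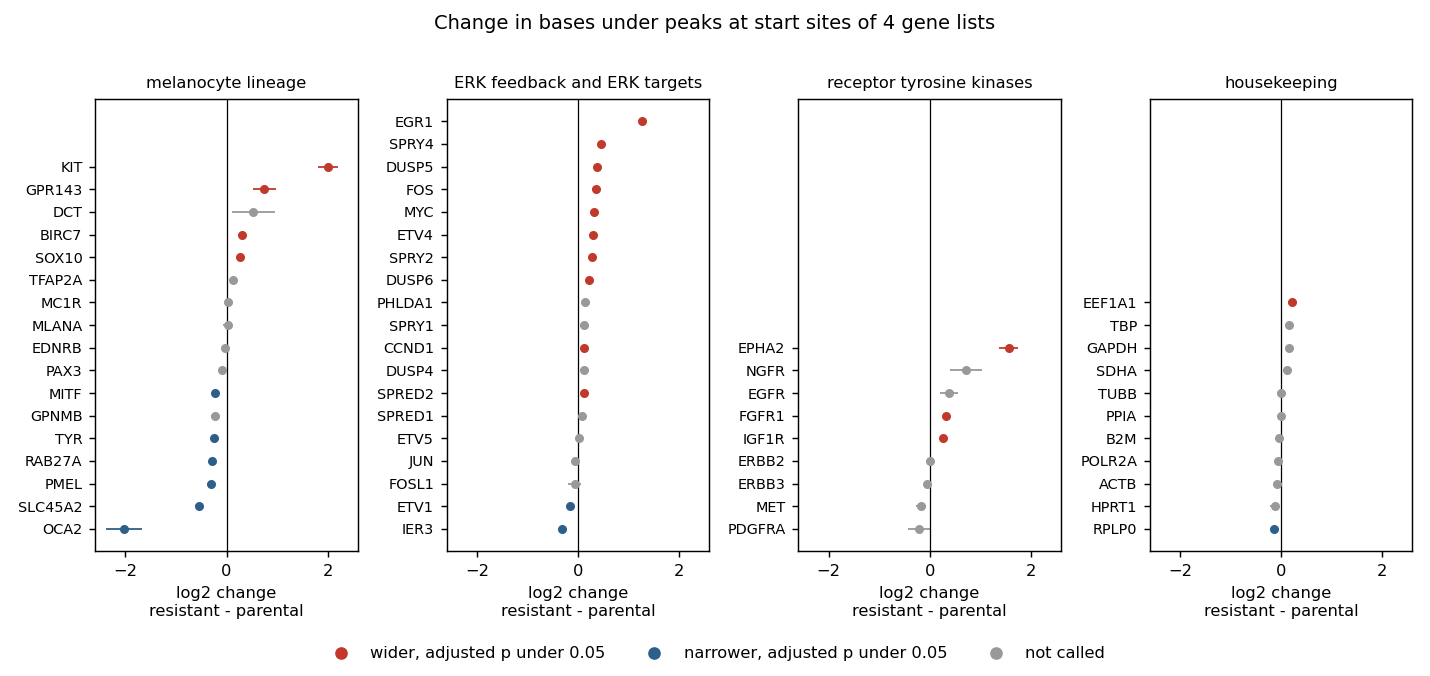
Log2 difference in bases under peaks, resistant minus parental (horizontal, point with SE from limma), at the 5′ ends of tested genes of 4 lists, red where wider, blue where narrower and grey where not called. EGR1 and SPRY4 top the ERK list. In the melanocyte list OCA2, SLC45A2, PMEL, RAB27A and TYR lie at the foot, while GPR143 and DCT lie just below KIT at the top. The housekeeping genes shown stay between −0.14 and 0.21. The sizes for KIT and OCA2, at 0 in one group, depend on the added 200 bases.

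Among 12 receptor genes, 9 were tested, 3 were wider and none narrower, with a median log2 difference of 0.27. Regions present in all 4 lists, as these 9 are, were wider in 15.4% and narrower in 16.5%, with a median of 0.0062. Without centring 1 of the 9 receptor genes was wider and 2 narrower, and centring by arm again gave 3 and 0. EPHA2, an ephrin receptor, changed most, with 3463 and 3682 bases in resistant cells, against 1274 and 1230 in parental cells (chr1:16479934-16484175; 1.57 ± 0.19, limma adjusted p = 0.000288), and colonies held 1791 and 2225. IGF1R (0.27 ± 0.05) and FGFR1 (0.33 ± 0.06) were wider by little. EGFR, a receptor linked to resistance in melanoma, had 1890 and 1937 bases in resistant cells, against 1618 and 1670 in parental cells, and was not called (0.39 ± 0.18, limma adjusted p = 0.106). NGFR, a marker of dedifferentiated melanoma, had 846 and 966, against 974 and 305 (0.72 ± 0.31, limma adjusted p = 0.0886). PDGFRA, MET, ERBB2 and ERBB3 were not called. AXL and KDR had no region at their 5′ ends, and PDGFRB had 255 and 0 bases in resistant cells and 0 and 0 in parental cells.

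Few genes of the kinase cascade itself were called, as among regions present in all 4 lists, of which 15.4% were wider and 16.5% narrower. Of 12 genes of the RAS, RAF, MEK and ERK core, all with peaks in all 4 lists, 1 was wider, 2 narrower and 9 not called. Their median was −0.01, beside 0.0062 for such regions. The counts were 0, 5 and 7 without centring and 1, 1 and 10 with centring by arm. BRAF had 3136 and 3213 bases in resistant cells, against 4252 and 3484 in parental cells (−0.07 ± 0.07, limma adjusted p = 0.459). NRAS had 2605 and 2117, against 2553 and 2224 (0.18 ± 0.10, limma adjusted p = 0.171). MAP3K8, a kinase that can activate MEK beside RAF, was narrower, with 2458 and 2572 bases in resistant cells, against 4151 and 3887 in parental cells (chr10:30721619-30726165; −0.44 ± 0.05, limma adjusted p = 0.000233). ARAF, a RAF kinase, was called narrower (−0.20), a call lost in 12 of 19 alternatives.

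Genes of mesenchymal transition, matrix and dedifferentiation moved both ways. Of 20 genes, 13 had a region and were tested, 6 were wider and 4 narrower, with a median of 0.05, or −0.05 when ALDH1A3, absent from parental lists, is left out. Without centring 2 were wider and 7 narrower, with a median of −0.14, and centring by arm gave 5 and 4, with a median of −0.01. Wider among the transcription factors was SNAI1, with 5866 and 5835 bases in resistant cells, against 5286 and 4615 in parental cells (chr20:48598567-48605429; 0.43 ± 0.04, limma adjusted p = 0.000103). ZEB1 (0.36), SNAI2 (0.29), TWIST1 (0.22) and CDH2 (0.23) were called wider, but of 19 alternatives the call was lost in 1 for ZEB1, in 4 each for SNAI2 and TWIST1 and in 10 for CDH2. WNT5A, a noncanonical Wnt ligand, was narrower, with 2248 and 2572 bases in resistant cells, against 4356 and 4222 in parental cells (chr3:55518524-55522925; −0.59 ± 0.07, limma adjusted p = 0.000326), whereas its receptor ROR2 was among the gained starts. SOX2 had 280 and 256 bases, against 1527 and 649 (−1.18 ± 0.29, limma adjusted p = 0.011), and COL1A1 (−0.72) and FN1 (−0.23) were narrower too, FN1 turning to 0.02 under the stricter peak threshold and COL1A1 losing the call in 7 of 19 alternatives. CDH1, CYR61, THBS1, TGFBI, INHBA and SOX9 were among the genes with no region at their 5′ ends in any of the 4 lists.

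Of the G1 genes, 4 were wider and 3 narrower of 10 tested, beside 15.4% and 16.5% of regions present in all 4 lists. These genes gave 0 and 4 without centring and 2 and 1 with centring by arm. The CDKN2A locus showed both directions. At the upstream start, which serves the ARF transcript, resistant cells had 8852 and 8647 bases, against 11197 and 11577 in parental cells (chr9:21986227-21997941; −0.18 ± 0.05, limma adjusted p = 0.0293). At the downstream start, which serves the p16 transcript, they had 6909 and 6657, against 4837 and 4490 (chr9:21969034-21976769; 0.72 ± 0.04, limma adjusted p = 5.99e-06). Resistant and parental values did not overlap at either start. CDK6 (0.32), CDKN1A (0.26), RB1 (0.27) and CCND1 were wider and CDK4 (−0.21), on 12q, and E2F1 (−0.37) narrower, and none of the 7 calls at 5′ ends held under every alternative.

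The enzymes that write and remove H3K4 methylation showed 2 wider and 1 narrower of 10, KMT2A (0.16), KDM5B (0.15) and ASH2L (−0.17). Of regions present in all 4 lists, 15.4% were wider and 16.5% narrower. None of the 10 enzyme genes was called when the 4 lists were fitted alone or centred by arm, while KMT2A and KDM5B turned to −0.04 without centring. The 12 housekeeping genes gave 1 wider, EEF1A1 (0.21), and 2 narrower, among them RPLP0 (−0.14), with a median of −0.03, with 0 wider and 8 narrower without centring and 1 and 0 with centring by arm, where RPLP0 turned to 0.003.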

How the data were processed

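H3K4me3 was measured by chromatin immunoprecipitation and sequencing, with 15 µg of chromatin and 50 bp reads over 8 lanes, per the labels' protocols. Fixation, at 4% for 10 min, is given for the resistant, parental and colony samples but not for the NRAS Q61K and GFP samples. Tools listed without a role, per the submitters' processing notes, are MACS2 2.1.2, deepTools 2.5.4, SAMtools and BWA, with GRCh37 (hg19) as the build. The authors deposited 1 peak list per library. Each deposited peak has a position, a score that follows its −log10 q, a fold enrichment (a ratio over local background), a −log10 p and a −log10 q, all the authors' own values. Here only positions, and −log10 q to rank and filter peaks, were used. Peaks off chromosomes 1 to 22 and X (163 of 97998) and the input samples were not used here. Read depth is not given, so no depth-based interval was computed.

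Peaks within 1000 bp were merged, and bases under peaks were summed per region and list. The width test took log2(bases + 200) to limma 3.58.1 (R 4.3.3) for regions with a peak in at least 2 of the 4 lists. The fit held 5 group means over 10 libraries, with a trend, and Benjamini-Hochberg adjustment at 0.05. The procedure was tested on simulated data. Bands came from circlize 0.4.16 and tables were built with Python 3.11.15. Alternatives covered peak threshold, list length, merging, minimum bases, added constant, centring, filters, libraries in the fit, a replicate block and leaving out each library.

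No GRCh37 annotation was used. Gene positions came from a table of 187 genes written from memory. Against RefSeq (GRCh38.p14), chromosomes matched for 187 of 187, neighbour order for 165 of 165 pairs, strand for 134 of 134 compared and gene length within 20% for 164. The GRCh37 positions themselves could not be checked, no coordinate was converted, and a region may cover starts of genes outside the table. By rule the text names, ranked by −log10 q, the top 15 gained and top 15 lost regions, the 10 largest called rises and 10 largest called falls among regions in all 4 lists, outside centromeric and heterochromatic bands, and all genes of the fixed lists. Results for a few of these genes are not reported here. The members and lists were chosen with earlier results of these data known.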

Additional observations from a re-analysis of the deposited data

How the results depend on the processing

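Peaks kept at a −log10 q of at least 10 gave 1387 lost, 1717 wider and 2591 narrower regions, and lists cut to equal length gave 1349 lost and 2870 narrower. Without centring 1065 were wider and 9183 narrower, and within regions present in all 4 lists 1645 and 1899. Dropping peaks under 300 bp gave 2447 lost regions. That setting, centring by arm and leaving out centromeric and heterochromatic bands were chosen after seeing the data. Leaving out 1 library at a time gave 543 to 708 gained, 4007 to 6320 lost, 1625 to 1982 wider and 1500 to 5224 narrower regions. Narrower regions numbered 1703 without parental replicate 1 and 1500 without parental replicate 2, where a region in only 1 of the 3 remaining lists is not tested. Lost regions numbered 6320 without parental replicate 2. Wider regions made up 30.4% of the calls, 43.1% at equal list lengths, 53.8% without parental replicate 1, 56.2% without parental replicate 2 and 46.4% in regions present in all 4 lists. The other counts moved by less than 1.5 times.

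Of 2080 values of 118 named results under the alternatives, 1893 kept their direction and call, 178 kept the direction but lost the call, and 9 changed sign. These were ETV1 (0.0197) and FN1 (0.0164) at the stricter threshold, and SPRED2 (−0.000226) where only overlapping peaks were merged. Without centring they were SPRED2 (−0.0876), CCND1 (−0.0767), KMT2A (−0.04) and KDM5B (−0.0445), and with centring by arm CCND1 (−0.0284) and RPLP0 (0.00289). Beyond what the alternatives' construction shows, the cause was not tested.

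Deviations of equally numbered resistant and parental libraries correlated at 0.0524 over 12772 regions. With 2 libraries a group, this cannot show whether equally numbered libraries were prepared together. With a replicate block, the 4 libraries gave 1858 wider and 5357 narrower regions, against 1798 and 5274 without it. Depth is unknown, so weak regions cannot be separated from regions below detection.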
